A study of Saccharomyces cerevisiae with 91 samples.

Results

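The cyclin genes CLN1, CLN2, CLN3 and CLB1 to CLB6 were selected by their common names from a table of nucleosome positions at budding yeast genes, and all 9 were found among its 4963 transcripts, of which 4536 were protein-coding open reading frames (ORFs). By the methods of the study, the positions come from 1 in vivo library of the laboratory wild-type strain BY4741 in log phase, whose chromatin was digested with micrococcal nuclease (MNase), which cuts the linker DNA between nucleosomes (MNase-seq), although the table itself does not state this origin. The sample labels describe its source as nuclei. The other 90 of the 91 libraries were chromatin reconstituted in vitro on a genomic plasmid library, with or without remodeler, and they were not analysed here. For each transcript the table gave the transcription start site (TSS), the dyad, or midpoint, of the first nucleosome downstream of it (+1) and of the next nucleosome upstream (−1), and the distance between both dyads, which is called the length of the nucleosome-depleted region (NDR) here. With a single library of an unsynchronized culture, each gene had 1 set of flanking positions for all cell cycle phases, no replicate error could be given, and no difference was tested. The coordinates carried no read depth. Each value is therefore set beside its percentile, the percent of ORFs with a smaller value with ties split evenly.

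Cyclins are unstable proteins that activate the kinase Cdc28 in turn, and most cyclin genes are transcribed in a single phase of the cycle. Cln3 acts first in G1 and removes the repressor Whi5 from the transcription factors SBF (Swi4 and Swi6) and MBF (Mbp1 and Swi6), which then transcribe CLN1, CLN2, CLB5 and CLB6. Cln1 and Cln2 drive budding and commitment to the cycle, Clb5 and Clb6 drive DNA replication, Clb3 and Clb4 contribute to replication and spindle assembly, and Clb1 and Clb2 drive mitosis under the control of Mcm1, the forkhead protein Fkh2 and the coactivator Ndd1. Accordingly, CLN1, CLN2 and CLN3 were taken as the G1 group and the 6 CLB genes as the S and M phase group.

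DNA stretches that hold the motifs of these regulators are shown first, because their place relative to the −1 and +1 nucleosomes is described further on. They were read from the RefSeq sequence of build R64 (SacCer3) along the direction of transcription, 5′ to 3′. At CLN2, a stretch under the −1 nucleosome (chrXVI:67134-67234, minus strand) held 3 SBF motifs (SCB; CGCGAAA and CACGAAA), in capitals.
CLN2: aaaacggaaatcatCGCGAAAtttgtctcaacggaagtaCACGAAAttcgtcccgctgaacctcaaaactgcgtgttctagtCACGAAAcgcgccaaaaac
At CLN1, a stretch far upstream of the −1 nucleosome (chrXIII:661826-661891, plus strand) held, in capitals, an Mcm1 consensus core, an SCB and the run GGGTAAACA, in which the Reb1 motif TTACCC on the opposite strand and the forkhead motif GTAAACA overlap. A further stretch (chrXIII:662026-662055, plus strand) held the MBF motif ACGCGT (MCB).
CLN1: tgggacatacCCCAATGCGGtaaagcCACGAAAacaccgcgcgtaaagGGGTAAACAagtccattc
CLN1, MCB: agcctgcaagagACGCGTtcaaggaagaat
At CLN3, capitals mark both matches to the early cell cycle box (ECB, searched by its consensus), the element at which Mcm1 acts at the end of mitosis and in early G1 (chrI:68402-68485, minus strand). Each match contains an Mcm1 consensus core, and the match nearer to the gene also contains TTACCC.
CLN3, ECB: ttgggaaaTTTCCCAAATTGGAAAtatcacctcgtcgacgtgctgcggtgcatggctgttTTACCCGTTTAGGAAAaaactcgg
The 282 bases between the cores of the −1 and +1 nucleosomes of CLN3 (chrI:67906-68187, minus strand) are shown because they were the longest such linker of the cyclin genes. Capitals mark 4 copies of AAGAAAAA on either strand, a motif of the glucose-responsive factor Azf1, and TATAAA on the opposite strand.
CLN3, linker: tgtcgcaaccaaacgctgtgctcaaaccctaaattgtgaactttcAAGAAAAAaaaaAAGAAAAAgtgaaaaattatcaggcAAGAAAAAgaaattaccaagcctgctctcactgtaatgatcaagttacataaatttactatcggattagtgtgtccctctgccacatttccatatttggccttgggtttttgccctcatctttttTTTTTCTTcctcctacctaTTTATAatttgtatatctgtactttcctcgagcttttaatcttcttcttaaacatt

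At the CLB genes, the stretches mark MCB and Mcm1 and forkhead motifs. The stretch of CLB6 (chrVII:706834-706941, minus strand) held an Mcm1 core, 2 MCBs and a forkhead motif.
CLB6: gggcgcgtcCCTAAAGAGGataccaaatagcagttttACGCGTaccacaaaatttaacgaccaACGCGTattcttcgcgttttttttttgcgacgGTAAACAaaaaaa
At CLB5 (chrXVI:775491-775520, minus strand) a single Mcm1 core was found.
CLB5: cgcgctttgcCCACATTGGGatagcgccca
At CLB1 (chrVII:703005-703032, plus strand) and CLB2 (chrXVI:770862-770920, plus strand) a forkhead motif on the opposite strand stood next to an Mcm1 core, and at CLB2 the Reb1 motif preceded them. A further Mcm1 core of CLB2 (chrXVI:771105-771130, plus strand) stood nearer to the gene.
CLB1: tttTGTTTACaaccgCCCAAAGAGGaaa
CLB2: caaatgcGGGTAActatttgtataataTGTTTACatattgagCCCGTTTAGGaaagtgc
CLB2, near: aaatataaCCTCTTTGGGgaaaagag
At CLB4 (chrXII:561837-561862, plus strand) a forkhead motif and at CLB3 (chrIV:176488-176513, plus strand) a Reb1 motif stood between the −1 and +1 nucleosomes.
CLB4: tttgcgctttGTAAACActgaaacaa
CLB3: aacatctcagTTACCCgcactgcctt

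Most cyclin genes had shorter NDRs than the median ORF, with a median of 207 bp, against 265 bp over 4485 ORFs. Of the 9 genes, 5 lay below the lower ORF quartile of 228 bp, 2 above the upper quartile of 298 bp and 2 in between. CLN3 (YAL040C, chromosome I) had the longest, 429 bp between a −1 dyad at 68261 and a +1 dyad at 67832, at percentile 95.0. Only 227 of the ORFs had an NDR at least as long. CLN1 (YMR199W, chromosome XIII) had an NDR of 207 bp between 662265 and 662472 (percentile 18.7). The NDR of its paralog CLN2 (YPL256C, chromosome XVI) measured 203 bp between 67190 and 66987 (percentile 17.7). The G1 cyclins thus split into a pair of short NDRs and 1 long one.

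Both S phase cyclins had short NDRs. For CLB5 (YPR120C, chromosome XVI) it was 185 bp, from the −1 dyad at 775405 to the +1 dyad at 775220 (percentile 13.8). For CLB6 (YGR109C, chromosome VII) it was 172 bp, from 706741 to 706569 (percentile 10.8). After subtraction of the nucleosome cores, taken as 147 bp each, 56 bp of linker were left at CLN2, 60 bp at CLN1 and 282 bp at CLN3, against 38 bp at CLB5 and 25 bp at CLB6. The G2 and mitotic cyclins ranged between 120 and 314 bp. CLB3 (YDL155W, chromosome IV) had 314 bp, from 176362 to 176676 (percentile 81.0), and CLB4 (YLR210W, chromosome XII) had 272 bp, from 561716 to 561988 (percentile 56.0). These were 2 of the 3 longest cyclin NDRs. CLB2 (YPR119W, chromosome XVI), the main mitotic cyclin, had 256 bp between 771038 and 771294, near the middle of the ORFs (percentile 42.0). CLB1 (YGR108W, chromosome VII) had 120 bp between 703399 and 703519 (percentile 1.54).

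The value of CLB1 lay at the lower limit of the calls. Dyads were called with an exclusion distance around each peak, and 120 bp was the smallest NDR length above 0 among the ORFs, shared by 120 of them, while 9 ORFs had shorter values and 5.75% lay under the 147 bp of a core. As cores of 147 bp, the −1 and +1 nucleosomes of CLB1 overlapped by 27 bp. Peak heights, which would show how often each dyad was occupied, were not part of the table.

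**Figure D1:**
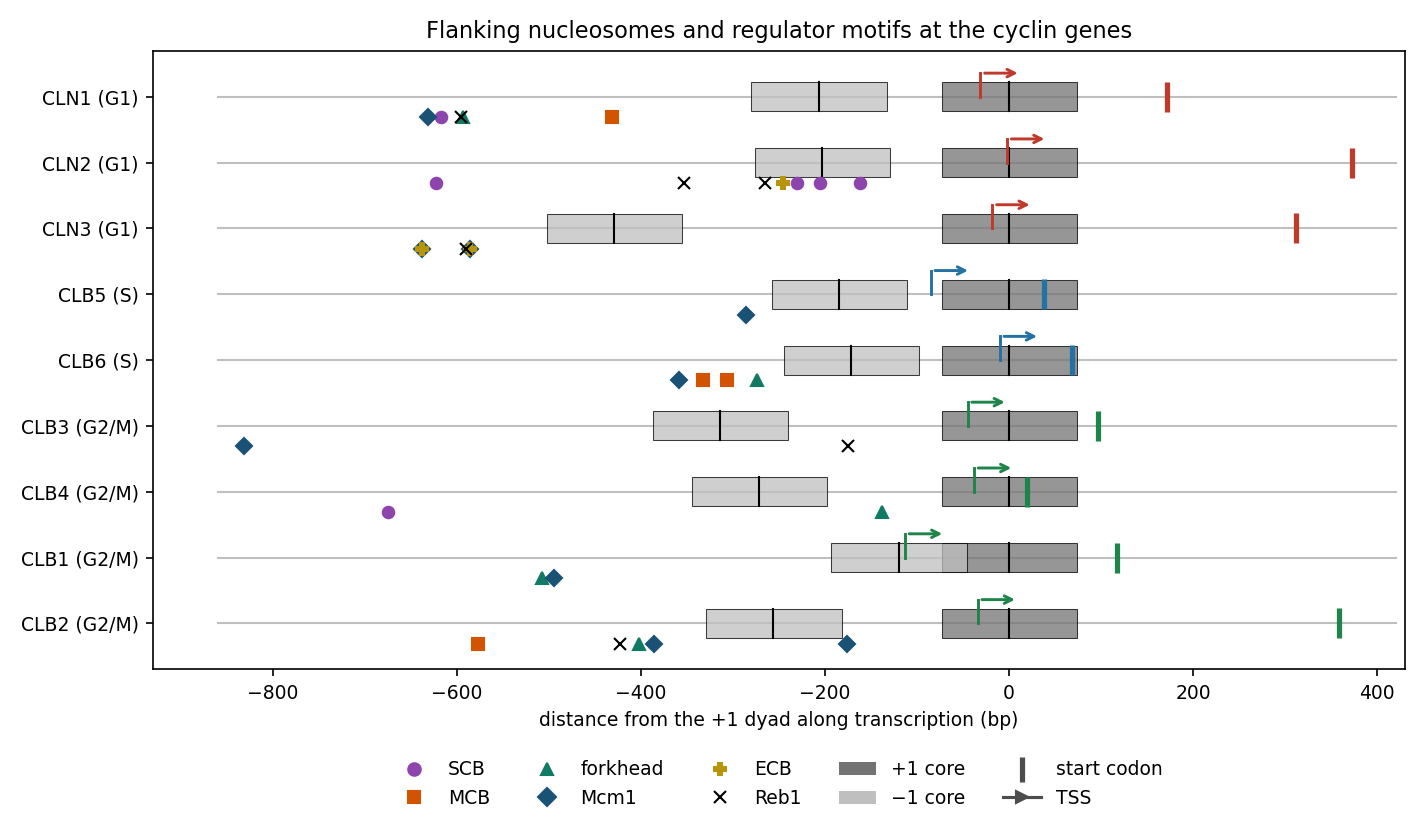
Nucleosomes and motifs at the 9 cyclin genes, aligned at the +1 dyad; the x axis gives the distance along transcription in bp, boxes are cores of 147 bp with the dyad as a line, arrows are TSSs, thick bars are start codons and symbols are motif centres within 800 bp upstream of the TSS. The 3 SCBs of CLN2 nearest to the TSS lie on its −1 core, most other regulator motifs lie upstream of the −1 core, and the cores of CLB1 overlap.

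The +1 nucleosomes of the G1 cyclins stood closer to the TSS than those of most ORFs. At CLN2 the TSS (66989) was 2 bp upstream of the +1 dyad (percentile 0.497), a distance of at most 2 bp that only 28 of 4528 ORFs had. At CLN3 the TSS (67850) was 18 bp (percentile 5.15) and at CLN1 (662441) 31 bp (percentile 13.9) upstream of the +1 dyad. The ORF median was 54 bp, with quartiles of 40 and 72 bp. The TSS of each G1 cyclin thus lay inside the +1 core and near its dyad.

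The CLB genes were less uniform. CLB6 had its TSS (706579) 10 bp from the +1 dyad (percentile 2.24), whereas CLB5 had it (775305) 85 bp away (percentile 81.5). CLB2 (TSS at 771260), CLB4 (561950) and CLB3 (176631) had distances of 34, 38 and 45 bp (percentiles 17.0, 21.8 and 33.0). These are below the ORF median. CLB1 had the largest distance of the cyclin genes, 113 bp from its TSS at 703406 (percentile 88.6). The −1 dyad of CLB1 lay only 7 bp upstream of this TSS (percentile 1.54), so that the TSS fell within the −1 core. Over all cyclin genes the median was 34 bp, 7 of 9 lay below the ORF median and 6 below the lower quartile. The TSS fell within the +1 core at 7 of 9 cyclin genes, all but CLB5 and CLB1, against 76.2% of ORFs.

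**Figure D2:**
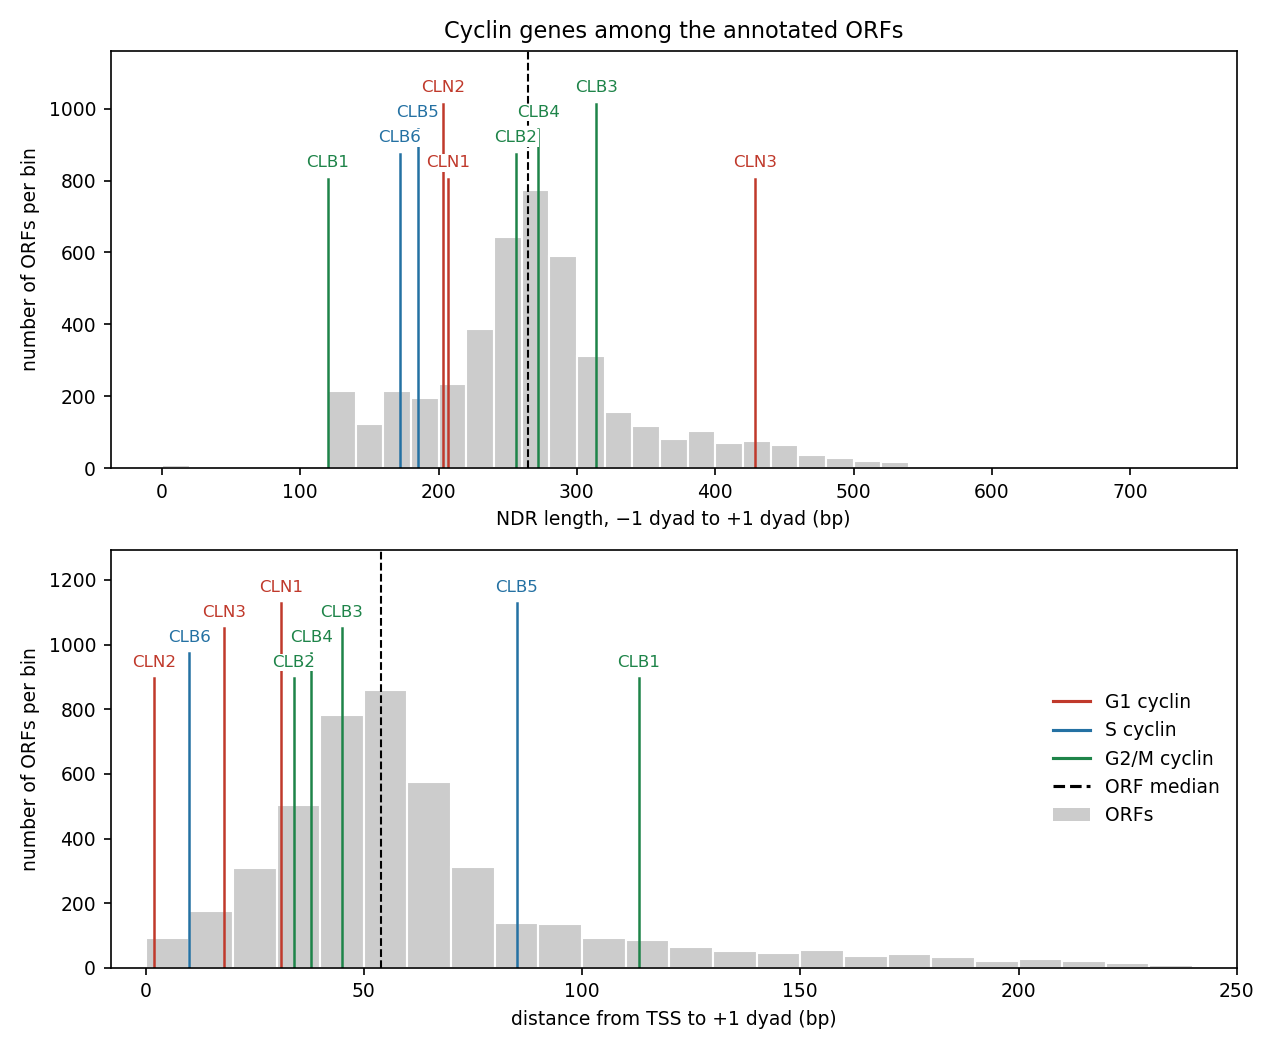
Histograms of NDR length (top, in bp) and of the distance from TSS to +1 dyad (bottom, in bp, axis ending at 250 bp) over the ORFs, with the number of ORFs per bin on the y axis and the 9 cyclin genes as colored lines; the dashed lines are the ORF medians of 265 and 54 bp. CLB1 stands at the left edge of the NDR lengths and CLN3 in the right tail, and CLN2 stands at the left edge of the TSS distances.

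Set against each other, the G1 cyclins and the S and M phase cyclins overlapped in NDR length. The G1 cyclins had 203, 207 and 429 bp (median 207 bp) and the S and M phase cyclins 120 to 314 bp (median 220.5 bp), a difference of −13.5 bp. This difference changed its sign when 1 gene was left out: it was 95.5 bp without CLN1, 97.5 bp without CLN2 and 22 bp without CLB3, CLB4 or CLB2, and −49 bp without CLB5, CLB6 or CLB1. NDR length thus did not separate both groups. Within the CLB genes, the S phase cyclins had 185 and 172 bp and the G2 and M phase cyclins 120 to 314 bp with a median of 264 bp.

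The distance from TSS to +1 dyad had less overlap. G1 cyclins had 2 to 31 bp (median 18 bp) and S and M phase cyclins 10 to 113 bp (median 41.5 bp), a difference of −23.5 bp. Among the CLB genes, only CLB6 with 10 bp fell into the G1 range. Leaving out each gene in turn gave differences of −31.5 to −17 bp. The −1 dyad lay 176, 201 and 411 bp upstream of the TSS at CLN1, CLN2 and CLN3 (median 201 bp), against 7 to 269 bp at the S and M phase cyclins (median 192 bp), and these ranges overlapped. With 3 and 6 genes from 1 library these are descriptions of the genes, which are not replicates of a phase.

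The table held a further column of +1 dyads, whose origin is not named, and it moved several of these values. In it the G1 cyclins CLN1, CLN2 and CLN3 had TSS distances of 20, 18 and 9 bp and the S and M phase cyclins 31 to 145 bp, so that the groups did not overlap. CLB6, with 38 bp, was the gene that left the G1 range. The dyad of this column stood 11, 9, 5 and 7 bp upstream of that of the first column at CLN1, CLN3, CLB3 and CLB4, and 16, 19, 28, 32 and 17 bp downstream at CLN2, CLB5, CLB6, CLB1 and CLB2. A downstream shift was thus found at 5 of 9 cyclin genes, against 37.7% of ORFs. Over all ORFs the median size of the shift was 11 bp, with its median at −4 bp along transcription and quartiles of −14 and 6 bp. CLB1 had the largest shift of the cyclin genes (percentile 95.1), and its NDR measured 152 bp with this column. The NDR of CLB6 was then 200 bp, that of CLB5 204 bp and that of CLN3 420 bp, and 5 of 9 genes again lay below the lower ORF quartile. In TSS distance, 6 of 9 genes lay below the ORF median of this column, and the number below its lower quartile fell from 6 to 4.

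**Figure D3:**
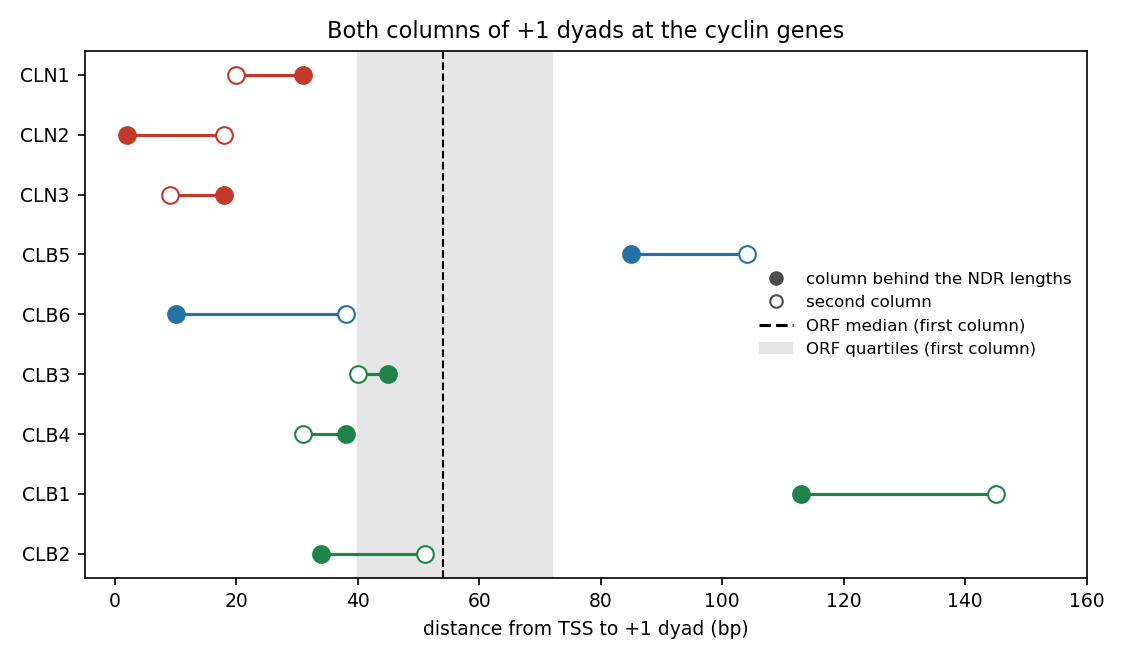
Distance from TSS to +1 dyad in bp (x axis) for the 9 cyclin genes (y axis), with filled circles for the column behind the NDR lengths and open circles for the further column; the dashed line and the grey band are the median and quartiles of the ORFs. Filled circles of G1 cyclins and of CLB6 overlap in range, while the open circles of the G1 cyclins all lie at or below 20 bp and those of the CLB genes at 31 bp or more.

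The leaders between TSS and start codon were long at most cyclin genes. The +1 dyad lay upstream of the start codon at all 9, against 57.6% of 4283 ORFs. CLN2 had a leader of 375 bp, CLN3 of 330 bp and CLN1 of 203 bp, against an ORF median of 70 bp. The leader of CLB2, 393 bp, was the longest (percentile 95.6), followed within the S and M phase group by 230 bp at CLB1, 142 bp at CLB3, 123 bp at CLB5, 78 bp at CLB6 and 58 bp at CLB4. Only CLB4 was below the ORF median. The median leader was 330 bp for the G1 cyclins and 132.5 bp for the S and M phase cyclins. The +1 dyad lay 373 and 359 bp upstream of the start codon at CLN2 and CLB2 and 20 bp upstream at CLB4, and the whole +1 core ended before the start codon at 6 of 9 cyclin genes, against 23.7% of ORFs. In long leaders an upstream ATG can lower translation. CLN2 and CLN3 had 1 ATG each in their leader and the other 7 had 0, while 26.6% of 4291 ORF leaders had at least 1. The short upstream frame of CLN3 is known to repress its translation in poor media.

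At CLB3, CLB1 and CLB4 the −1 dyad was also a dyad of a neighboring transcript. At CLB3 the −1 dyad was also the last dyad of CMR1 (YDL156W) and lay within its coding region, and the transcript of CMR1 ended 1 bp past the TSS of CLB3. CLB1 showed the same arrangement with YGR107W, a transcript classed outside the ORFs, which ended 1 bp past the TSS of CLB1 and whose last dyad was the −1 dyad of CLB1. CLB4 shared its NDR with the divergent gene PNP1, a purine nucleoside phosphorylase, so that the +1 dyad of each was the −1 dyad of the other. Among 4492 ORFs, 24.2% had a −1 dyad that was the last dyad of another transcript and 25.9% one that was the +1 dyad of another. Such sharing is thus common and not particular to the cyclin genes. The G1 cyclins and CLB5, CLB6 and CLB2 had a −1 dyad of their own in intergenic DNA.

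By the RefSeq annotation, the intergenic DNA upstream of the start codon was long except at CLB3 and CLB4. The distance to the next annotated gene was 1114 bp at CLN1 (to CIK1, in tandem), 1110 bp at CLN2 (to BBP1, divergent) and 1195 bp at CLN3 (to CYC3, in tandem). At CLB3 and CLB4 it was 286 and 275 bp. For CLB5, CLB6, CLB1 and CLB2 the next upstream gene was a tRNA gene, at 582, 606, 2587 and 2350 bp. At CLB1 this distance passes over the YGR107W transcript (702854 to 703407), which also spans the forkhead and Mcm1 matches of CLB1. The CLB genes other than CLB3 and CLB4 also stood in convergent pairs: CLB1 faced CLB6 on chromosome VII, and CLB2 faced CLB5 on chromosome XVI. The transcripts of CLB1 and CLB6 ended 27 bp apart and their last dyads lay 285 bp apart, and for CLB2 and CLB5 these distances were 187 and 275 bp.

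The paralog pairs differed in how alike their promoters were. Cln1 and Cln2 were 58.0% identical in a global alignment of the translated R64 reading frames, and their NDRs differed by 4 bp and their TSS distances by 29 bp. Clb5 and Clb6 were 49.5% identical, and their NDRs differed by 13 bp but their TSS distances by 75 bp. Clb3 and Clb4 were 50.1% identical, with differences of 42 and 7 bp. Clb1 and Clb2 had the highest identity, 59.7%, and the largest differences of these pairs, 136 bp in NDR length and 79 bp in TSS distance. With the further +1 column the NDR differences were 23, 4, 44 and 121 bp in the same order and the TSS distances differed by 2, 66, 9 and 94 bp. CLB1 and CLB2 thus had the largest differences under either column.

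Regulator motifs were searched on both strands in the 500 bp upstream of the TSS. An SCB (CGCGAAA or CACGAAA) or an MCB (ACGCGT) was found at 3 of 9 cyclin genes, namely CLN1, CLN2 and CLB6, against 18.6% of ORFs. Forkhead motifs (GTAAACA) were found at CLB6, CLB4, CLB1 and CLB2, that is 4 of 9, against 11.02% of ORFs. The variant ATAAACA was at none of the 9 genes and at 16.6% of ORFs. With either form counted, 4 of 9 cyclin genes had a match, against 25.7% of ORFs. Mcm1 cores, searched by their consensus, were found at 4 of 9 genes, CLB5, CLB6, CLB1 and CLB2, against 13.9% of ORFs. Within 500 bp the Mcm1 and forkhead matches thus fell on CLB genes and the SCBs on CLN2. The counts depended on the window. Within 250 bp, SCB or MCB, GTAAACA and Mcm1 matches were found at 1, 1 and 2 cyclin genes, against 12.5%, 6.35% and 6.88% of ORFs. Either forkhead form was found there at 1 cyclin gene, against 15.7% of ORFs. Within 800 bp, SCB or MCB, GTAAACA and Mcm1 matches were found at 5, 5 and 7 cyclin genes, against 23.5%, 15.0% and 20.4% of ORFs. Either forkhead form was then at 5 cyclin genes, against 33.8% of ORFs. This window added Mcm1 cores at CLN1, CLN3 and CLB3, a forkhead motif at CLN1, SCBs at CLN1 and CLB4 and an MCB at CLB2. The split seen within 500 bp was thus lost. CLB5 had no SCB or MCB in any of these windows. The ECB was found at CLN2 (1.06% of ORFs) and, within 800 bp, at CLN3 with 2 copies (1.21% of ORFs), and each ECB of CLN3 contained an Mcm1 core. A match is a description of these letters and not a bound site.

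Their place relative to the nucleosomes differed between genes. Of 16 matches for SCB, MCB, forkhead, Mcm1 and ECB within 500 bp, 10 lay upstream of the −1 core, 4 in the −1 core and 2 between both cores. The 10 upstream were 3 of 3 MCBs, 3 of 4 forkhead motifs and 4 of 5 Mcm1 cores, and over all ORFs 33.8%, 40.2% and 49.8% of the matches to these motifs lay upstream of the −1 core, the most common place for the forkhead and Mcm1 matches. These shares were not matched for the place of the −1 dyad. It lay 7, 100 and 162 bp upstream of the TSS at CLB1, CLB5 and CLB6, against an ORF median of 211 bp. More of the 500 bp was thus upstream of the −1 core there, and at CLB1 no match could lie between the overlapping cores. The 4 in a −1 core were all at CLN2. Its 3 SCBs, in the stretch shown above, had their centres 228, 203 and 160 bp upstream of the TSS, which is 27 and 2 bp upstream and 41 bp downstream of the −1 dyad at 67190, and its ECB was centred 243.5 bp upstream of the TSS. Peak heights were not given, so how often the −1 position of CLN2 was occupied is unknown. Over all ORFs, 14.8% of CGCGAAA and 29.1% of CACGAAA matches lay in a −1 core, and 57.1% and 33.1% lay between the cores. At CLN1 and CLB6, by contrast, the MCBs lay upstream of the −1 core, 400.5 bp from the TSS at CLN1 and 322.5 and 296.5 bp at CLB6. Over all ORFs 48.7% of MCBs lay between the cores.

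The mitotic cyclins had their motifs at a similar distance from the TSS, but not from the −1 dyad. At CLB1 the forkhead and Mcm1 matches were centred 395 and 381.5 bp upstream of the TSS, 13.5 bp apart. At CLB2 they were centred 368 and 351.5 bp upstream, 16.5 bp apart. From the −1 dyad, the matches were centred 388 and 374.5 bp upstream at CLB1 and 146 and 129.5 bp upstream at CLB2. A spacing of at most 30 bp was found at 27 of 4536 ORFs (0.595%), a limit chosen after the values of CLB1 and CLB2 were seen, and at CLB6 the spacing was 84.5 bp. At both mitotic cyclins these pairs lay upstream of the −1 core, where 40.2% of GTAAACA and 49.8% of Mcm1 matches over all ORFs lay. The matches between the cores were the further Mcm1 core of CLB2, 142.5 bp upstream of the TSS, and the forkhead motif of CLB4, 100 bp upstream.

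Motifs of general factors were searched in the same way. TTACCC, the core motif of Reb1, a general regulatory factor that excludes nucleosomes, was found at 3 of 9 cyclin genes (CLN2, CLB3 and CLB2), against 26.0% of ORFs. Only at CLB3 did it lie between the cores, 175.5 bp upstream of the +1 dyad. Over all ORFs, 51.5% of TTACCC matches lay between the cores. The Abf1 consensus and the Rap1 motif ACCCNNACA were in no cyclin promoter within 500 bp, against 18.7% and 6.02% of ORFs. Within 800 bp, TTACCC was at 5 of 9 cyclin genes (33.2% of ORFs), the Abf1 consensus at 3 of 9 (21.6% of ORFs) and the Rap1 motif at 0 (8.31% of ORFs). TATAAA was present at 3 of 9 genes and at 56.4% of ORFs. AAGAAAAA occurred 5 times at CLN3, with 4 copies in the linker shown above and 1 in the +1 core, and once at CLB6, while 28.7% of ORFs had it.

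The DNA upstream of the +1 dyad was described by the rigidity score of the study, averaged over 21 bp. The score gives each position the length of the longest stretch of As and then Ts that covers it (2 bp or more). It was read 100 and 55 bp upstream of the dyad. The 55 bp position lies inside the +1 core, and at CLB1 and CLB6 the 100 bp position lies inside the −1 core. CLB2 and CLB3 had the most rigid DNA. At 100 bp upstream of the +1 dyad the score was 5.52 bp at CLB2 (percentile 96.8), 3.95 bp at CLB3 (91.2), 3.10 bp at CLN1 (82.8), 2.95 bp at CLB6 (80.5) and 2.38 bp at CLB4 (67.4). It was 1.81 bp at CLB5, 1.62 bp at CLN3, 1.14 bp at CLN2 (15.6) and 1.05 bp at CLB1 (12.7), against an ORF median of 1.90 bp. The cyclin median was 2.38 bp and 5 of 9 genes were above the ORF median. With the further +1 column the cyclin median was 1.81 bp, below the ORF median of 1.86 bp, and 4 of 9 genes were above it, so that no direction was held by the group. At 55 bp, CLB2 (4.38 bp, percentile 99.1) and CLB3 (3.19 bp, 95.9) were again the highest, and 6 of 9 genes were above the ORF median of 1.43 bp. This count was 8 of 9 with the further +1 column and 5 of 9 in windows of 11 bp, each against its own ORF median.

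**Figure D4:**
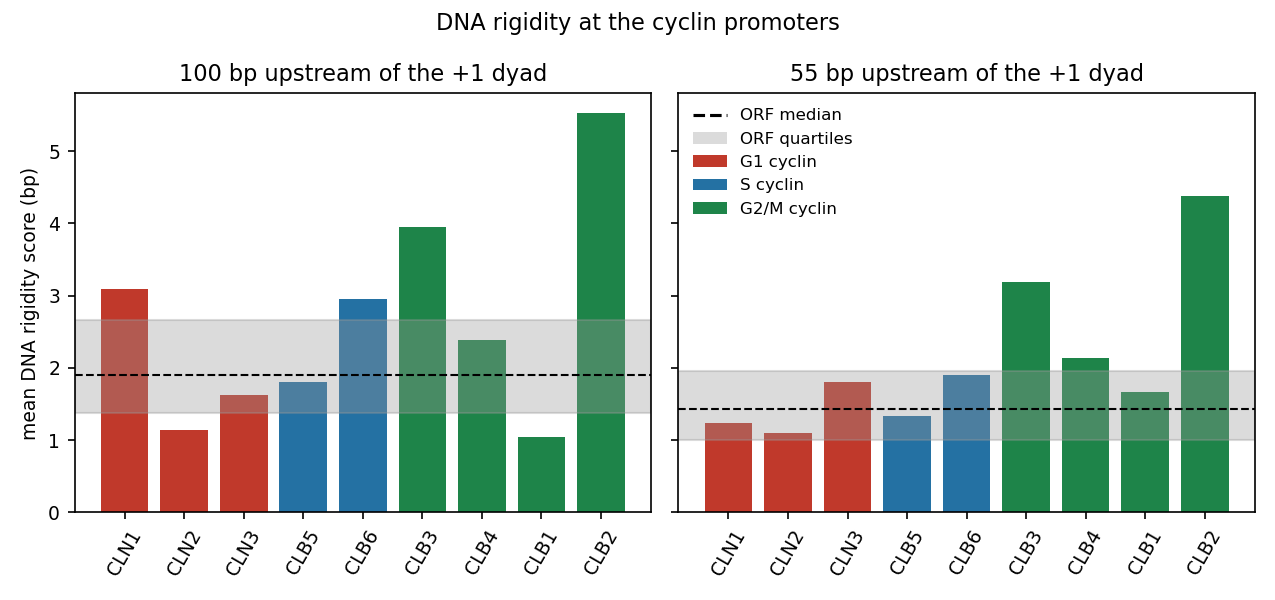
Mean DNA rigidity score in bp (y axis) of each cyclin gene (x axis) over 21 bp centered 100 bp (left) and 55 bp (right) upstream of the +1 dyad; bars are single genes, the dashed line and grey band are the median and quartiles of the ORFs. CLB2 and CLB3 exceed the upper quartile at both positions.

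Stretches of at least 6 A or 6 T and base composition varied widely among the NDRs. Both were measured from dyad to dyad and so include core DNA of the flanking nucleosomes. At CLB6 and CLB5 only 25 and 38 bp of this DNA were linker, and at CLB1, whose cores overlapped, none was. CLB2 had 8.56% of its NDR in such stretches (percentile 92.1), with 8 bases in A and 14 in T stretches, and CLN3 had 6.28% (percentile 81.2), with 11 and 16 bases. CLN1, CLN2 and CLB4 had 0, as did 31.9% of ORFs. Among the rest, CLB1 had 4.96%, CLB5 4.30%, CLB6 3.47% and CLB3 1.90%, against an ORF median of 2.87%. The GC content was highest at CLN2 (44.6%, percentile 97.1) and CLB3 (41.3%, percentile 90.1) and lowest at CLB6 (28.3%, percentile 2.00) and CLB2 (28.0%, percentile 1.62), with an ORF median of 35.5%. CLB3 therefore combined a high rigidity score upstream of the +1 dyad with a GC-rich NDR, whereas CLB2 was rigid and AT-rich. The lists of BamHI, EcoRV and KpnI recognition sites placed 2 sites between the −1 and +1 dyads of cyclin genes, and both lay in the −1 core. At CLB4 it was an EcoRV site 226 bp upstream of the TSS (position 561724, −1 dyad at 561716). At CLN1 it was a KpnI site 127 bp upstream of the TSS (position 662314, −1 dyad at 662265).

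Other genes of the cell cycle engine were set beside the cyclins. Of 14 further cyclin genes, which mostly act with Pho85 or in transcription, 12 were in the table, with a median NDR of 231.5 bp and 6 below the lower ORF quartile. The shortest of them was PCL5 with 140 bp, which measured 285 bp with the further +1 column, and the longest BUR2 with 428 bp. The 6 kinases and partners found of 7 had a median of 297.5 bp, with KIN28, the kinase of TFIIH, at 195 bp and CDC28, the partner of the Cln and Clb cyclins, at 447 bp. Among regulators, 13 of 15 were found, with a median of 264 bp between CDC20, an activator of the anaphase-promoting complex, at 169 bp and WHI5 at 349 bp. Transcription factors of later phases, 8 of 9 found, had a median of 204.5 bp and none between the ORF quartiles, with MCM1 at 120 bp and FKH1 at 418 bp. The median TSS distance was 34 bp for the 9 cyclin genes described above, against 60.5, 59, 61 and 65 bp for these lists in the order given and 54 bp for ORFs. The values for MCM1 and CLB1 were equal at the lower limit of the calls.

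**Figure D5:**
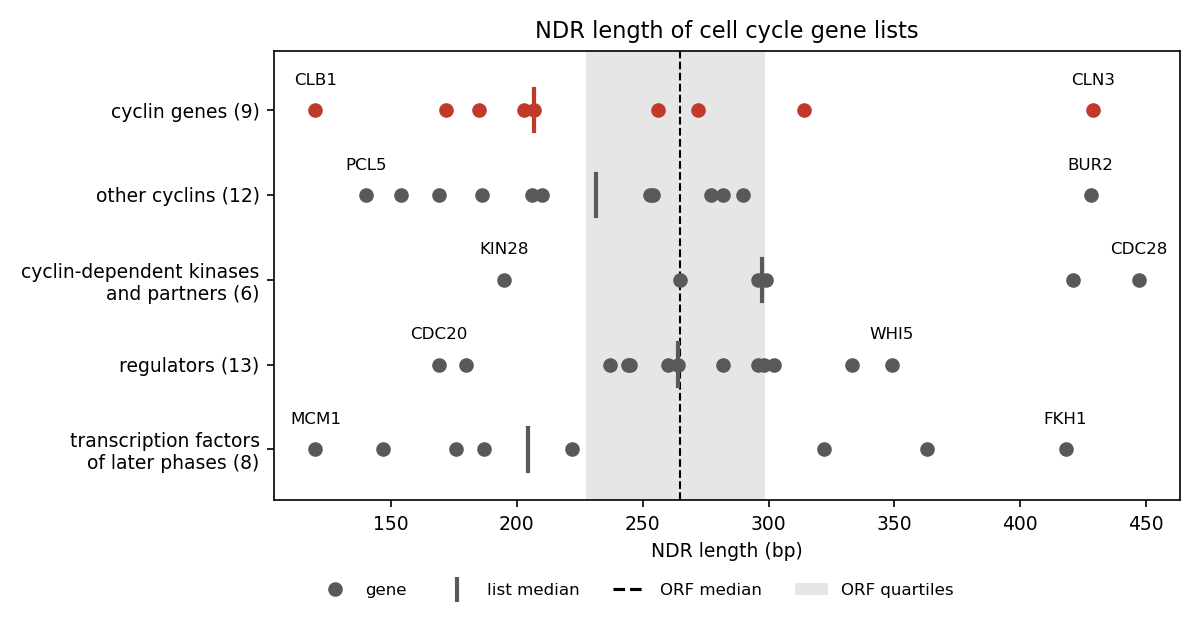
NDR length in bp (x axis) of the genes of each list (y axis, number of genes with a value in parentheses), with vertical bars for the list medians and the dashed line and grey band for the median and quartiles of the ORFs; the shortest and longest gene of each list are named. The 9 cyclin genes have a median of 207 bp, below the ORF median of 265 bp, and range between CLB1 at 120 bp and CLN3 at 429 bp.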

How the data were processed

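In the methods of the study, mononucleosomal DNA of log phase BY4741 grown in YPD was sequenced (the labels name nuclei as its source), and reads were mapped to SacCer3 (R64) with Bowtie. The authors moved each read end to the presumed dyad, applied a Gaussian filter, called peaks with an exclusion zone around each and deposited dyad and transcript coordinates in bp, a unit other than a count or a signal, with no depth. The TSSs came from a published transcript annotation. Of the columns, the +1 dyads from which the deposited NDR lengths follow (4903 of 4903 transcripts with an NDR) were used, and the further +1 column, which gives the same length in 124 of them, served as an alternative. A remainder of 6 coordinate columns was left aside. Distances were computed along transcription with Python 3.11.15, pandas 2.3.3 and Biopython 1.88. Leaders and upstream neighbors used the R64 RefSeq annotation, which 4412 ORFs matched. A core was taken as 73 bp on either side of a dyad. A further planned motif is not reported here. Motif matches were placed by their centre, and overlapping matches were counted separately. Protein identity was the number of identical residues in a global BLOSUM62 alignment divided by the shorter length. The rigidity score was checked on simulated DNA, with 0 differences over 12000 positions, and 200 of 200 planted motifs were recovered. The 9 genes, the motifs and the gene lists were chosen with earlier results of these data known. From the other lists, the genes with the shortest and longest NDR were named, together with direct neighbors of the cyclin genes. Alternatives concerned the +1 column, the ORFs used, the genes in each group, the motif window, the core width and the rigidity window. No test was run, since positions from 1 library have no replicates.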

Additional observations from a re-analysis of the deposited data

How the results depend on the processing

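With the further +1 column in place of the main one, the median NDR length of the cyclin genes was 219 bp (main 207 bp, percentile 24.5 against 18.7) and the median distance from TSS to +1 dyad 38 bp (main 34 bp, percentile 29.6 against 17.0). In percentiles over all transcripts in place of ORFs these medians stood at 20.1 and 17.6, and the −1 dyads at 45.5 against 44.0. Limiting NDRs to 120 to 500 bp gave percentile 18.8, and counting shared dyad pairs once gave 18.7. The G1 minus S and M phase difference in NDR length (main −13.5 bp) was −15.5 bp with the further column, −15.5 bp without CLN3 and −61 bp with CLB5 and CLB6 in the G1 group. Leaving out each gene in turn gave −49 to 97.5 bp, with the sign reversed without CLN1 (95.5 bp), CLN2 (97.5 bp), CLB3, CLB4 or CLB2 (22 bp each). The difference in TSS to +1 distance (main −23.5 bp) was −27.5 bp with the further column, −25 bp without CLN3 and −31.5 to −17 bp leaving out each gene in turn, an alternative chosen after seeing the data. SCB or MCB motifs were found at 1, 3 and 5 cyclin genes within 250, 500 and 800 bp, against 12.5%, 18.6% and 23.5% of ORFs. Mcm1 cores were found at 2, 4 and 7 (6.88%, 13.9% and 20.4% of ORFs). The forkhead motif GTAAACA was found at 1, 4 and 5 (6.35%, 11.02% and 15.0% of ORFs). With ATAAACA also counted, the cyclin counts stayed the same, against 15.7%, 25.7% and 33.8% of ORFs. The count of 10 motifs upstream of the −1 core was equal with the further column and with cores of 60 bp on either side. The median rigidity score at 100 bp (main 2.38 bp) was 1.81 bp with the further column and 2.18 bp in windows of 11 bp, and at 55 bp (main 1.81 bp) it was 1.90 and 1.55 bp. Counting A or T stretches from 5 bases raised the median share of the NDR to 8.25% from 3.47%. No paired analysis was possible because the positions come from 1 library. The depth behind each dyad is unknown, and the exclusion distance limits how short an NDR can be. The cause of each change was not tested.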
